A study of Saccharomyces cerevisiae and Saccharomyces paradoxus and Saccharomyces cerevisiae x Saccharomyces paradoxus with 12 samples.

Results

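The 30 genes described here encode the factors that start translation in budding yeast. They were chosen by gene identifier from a list of known initiation factors and make up 30 of the 5226 genes in the table of read counts. All 30 were present and all 30 passed the filter on low counts. RNA-seq, which measures mRNA, and Ribo-seq, or ribosome profiling, a count of mRNA fragments shielded by ribosomes, came from a diploid S. cerevisiae (strain GSY83), a diploid S. paradoxus (GSY82) and a diploid F1 hybrid of these species (GSY88). Every strain grew at 30 °C in rich glucose medium to an optical density between 0.6 and 0.9 and received cycloheximide, which stalls elongating ribosomes, for 5 min before extraction. Each strain gave 2 libraries per assay, 12 in all, and reads of the hybrid were assigned to either species' allele, so that the table held 16 columns. The labels do not say whether replicates were separate cultures, so p-values reflect just the spread among these samples, which may be technical. The headers of the parental columns carry the word Mix, which no source used here explains, and whether parental columns of the same number were prepared together cannot be told.

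In eukaryotes the small ribosomal subunit, loaded with initiator tRNA by the GTP-binding factor eIF2 and held by eIF1, eIF1A, eIF3 and eIF5, is brought to the capped end of an mRNA by the eIF4F complex and scans for a start codon. The exchange factor eIF2B recharges eIF2 with GTP, and phosphorylation of eIF2 by the kinase Gcn2 blocks that step during starvation. Helicases such as eIF4A and Ded1 unwind the leader, and eIF5B joins the large subunit.

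Depth was 6116133 to 8910405 counts per column. Levels are given as counts scaled to library size (CPM) after TMM scaling, which corrects library totals for composition, and comparisons between genes use CPM per kilobase of coding sequence. Scaling bears on the results: its factors were larger for the S. cerevisiae RNA-seq columns than for the S. paradoxus ones, and counts of calls with unscaled totals are given beside the mRNA results. A lower share of a library cannot be told apart from less RNA per cell in these bulk samples. As a check of the diploid label, all 8 of the listed haploid-specific genes lay below the median gene in each RNA-seq group. By the parental mRNA test described below, 3 of the 8 were higher and 1 lower in S. cerevisiae. Their log2 ratios to S. paradoxus ran from -1.47 to 4.02. Over all genes 21.9% were called higher and 21.6% lower. The 30 genes lie at the same sacCer3 positions as in the R64 annotation and each is a single uninterrupted block, and 21 have equal coding lengths in both species.

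The initiation factors were abundant mRNAs. Their median level was 232 CPM per kilobase in S. cerevisiae and 384 in S. paradoxus, against 54.8 and 51.1 for all genes. Ribosome occupancy, the Ribo-seq level, had a median of 423 CPM per kilobase in S. cerevisiae and 560 in S. paradoxus, against 48.3 and 45.2 for all genes. TIF1, which encodes the helicase eIF4A, was the highest member in all 8 combinations of assay and genome, and DBP1, a paralog of the helicase gene DED1, was the lowest. TIF1 mRNA stood at 939.8 and 993 CPM per kilobase in the S. cerevisiae libraries and 1667 and 1703 in those of S. paradoxus. DBP1 mRNA stood at 4.5 and 4.56 CPM per kilobase in S. cerevisiae and 4.72 and 4.33 in S. paradoxus, so the species overlapped.

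Subunits of eIF3 were closer together in occupancy than in mRNA. Among the 5 core subunits of eIF3, the scaffold that binds the small subunit, the highest mRNA exceeded the lowest 3.65-fold and 4.03-fold in the S. cerevisiae libraries and 3.54-fold and 2.70-fold in the S. paradoxus libraries. For occupancy the same ratio was 1.62 and 1.91 in the S. cerevisiae libraries and 1.32 and 1.55 in those of S. paradoxus. The occupancy ratio lay below the mRNA ratio in every library of both species. The 3 subunits of eIF2 gave mRNA ratios of 1.81 and 1.8 in the S. cerevisiae libraries and 2.25 and 1.24 in those of S. paradoxus. Their occupancy ratios were 1.13 and 1.08 in the S. cerevisiae libraries and 1.17 and 1.44 in those of S. paradoxus, and the second S. paradoxus libraries went the other way. For eIF2B the mRNA ratios were 2.08 and 2.56 in the S. cerevisiae libraries and 1.58 and 2.40 in those of S. paradoxus. The eIF2B occupancy ratios were 1.38 and 1.55 in the S. cerevisiae libraries and 2.08 and 2.05 in those of S. paradoxus, where the first library was again the other way round. These ratios are descriptions, with no test.

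**Figure D1:**
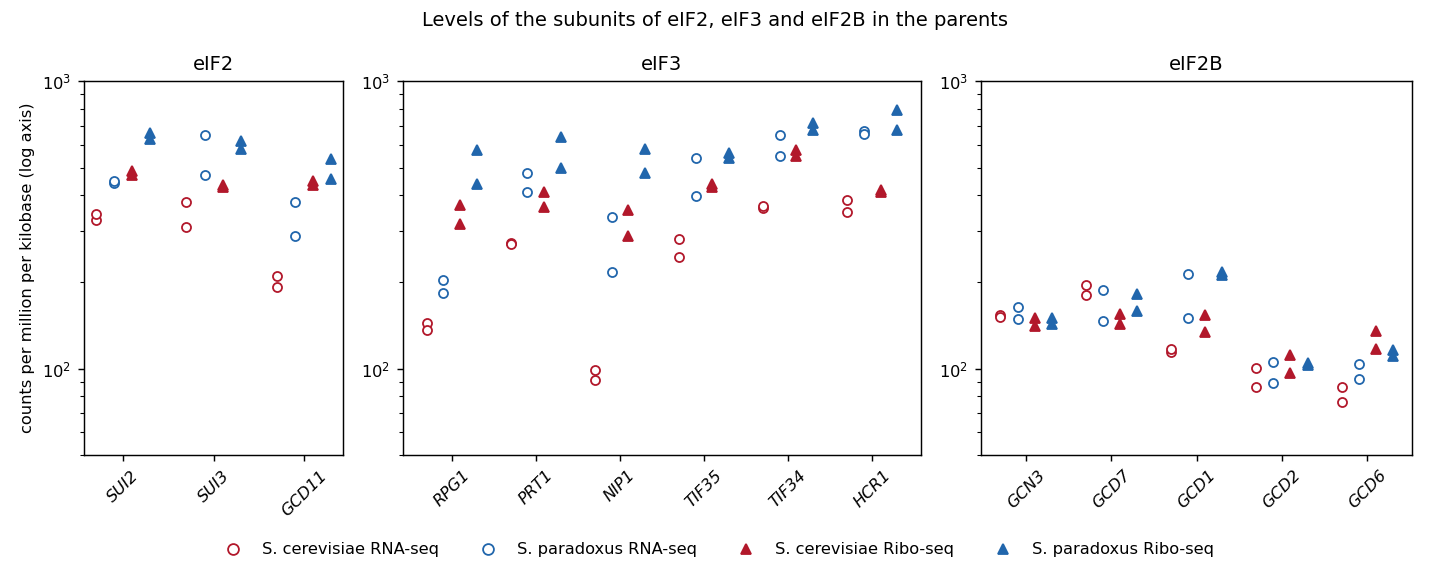
Levels of the subunits of eIF2, eIF3 and eIF2B, in CPM per kilobase on a log axis, for mRNA and ribosome occupancy in each library. Among the 5 core subunits of eIF3, which leave out HCR1, the S. cerevisiae mRNA values span 3.65-fold and 4.03-fold, and the occupancy values 1.62-fold and 1.91-fold.

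Between the parents, initiation factor mRNA was lower in S. cerevisiae for most of the genes. Of the 30, 19 fell and 0 rose (edgeR quasi-likelihood test, Benjamini-Hochberg adjusted p under 0.05), or 63.3%, where 21.6% of all genes tested were called lower and 21.9% higher. The members' median log2 ratio, S. cerevisiae minus S. paradoxus, was -0.68, against -0.00 over all genes, and 27 of the 30 lay below 0. Both S. cerevisiae libraries lay below both S. paradoxus libraries for 24 of the 30, a pattern that 38.7% of all genes showed. With unscaled totals 11 of the 30 were called, the members' median was -0.40 and the median of all genes moved to 0.27. Without the second S. cerevisiae RNA-seq library 12 were called, and with the replicate number as a block 20. TIF1, TIF2, CDC33, TIF4631, PAB1, SUI1, TIF5, NIP1, HCR1 and DED1 passed in all of the alternatives run.

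**Figure D2:**
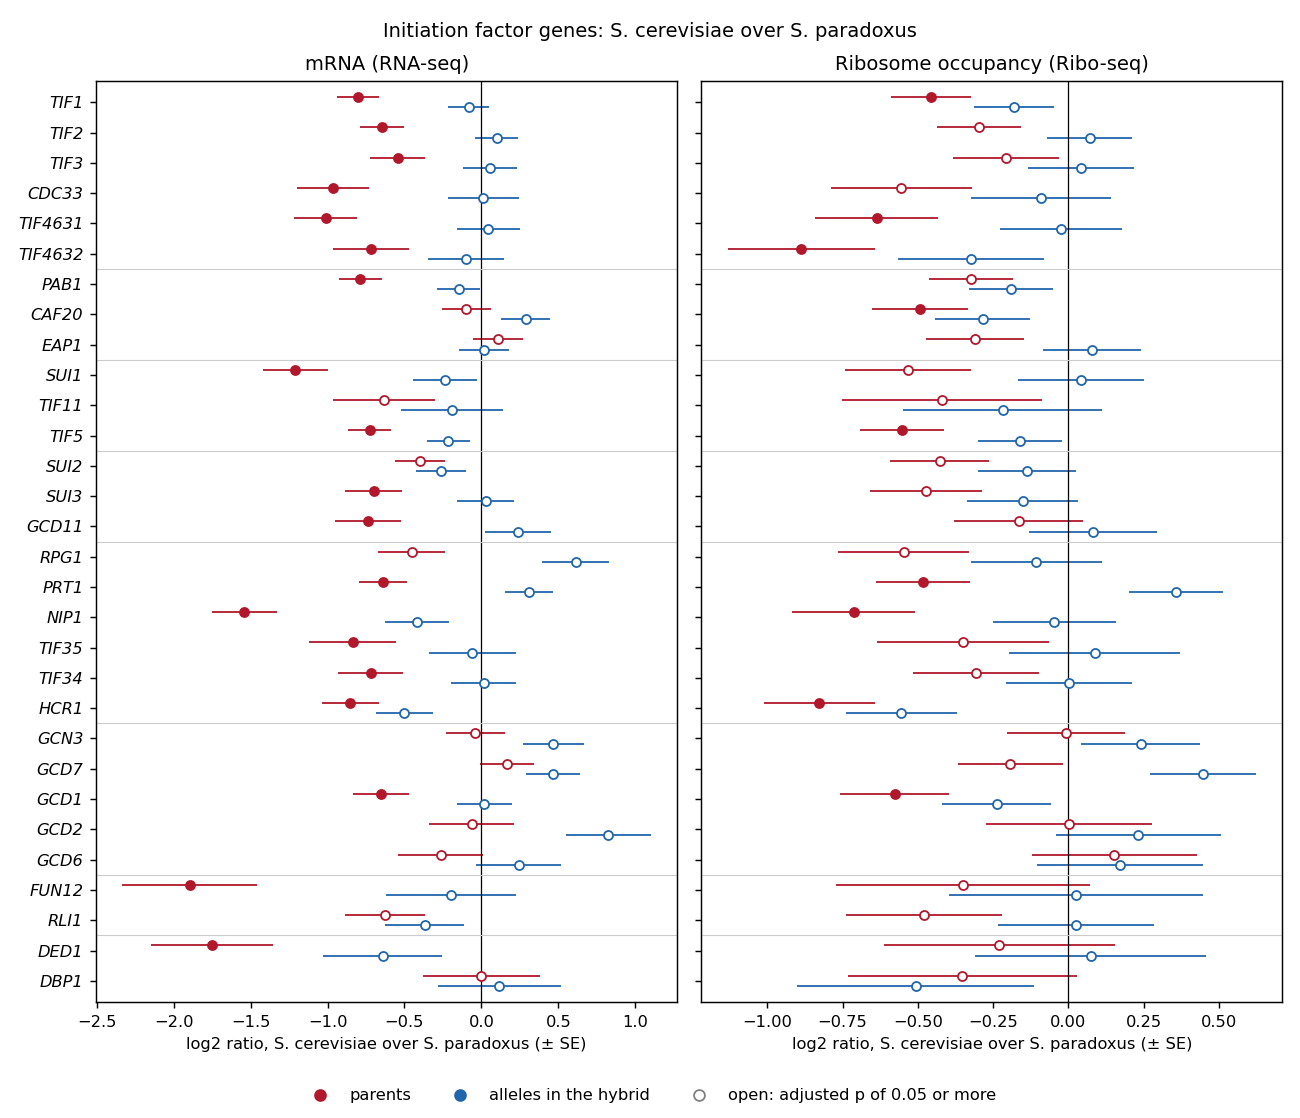
Log2 ratio, S. cerevisiae minus S. paradoxus, of each of the 30 genes between the parents and between the alleles of the hybrid, for mRNA and occupancy, with standard errors, filled where called. The parental mRNA values lie below 0 for 27 genes with a median of -0.68.

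All 6 genes of the cap-binding group fell. TIF1 (YKR059W, chromosome XI, 554987 to 556174) encodes eIF4A and had 1116 and 1179 CPM in S. cerevisiae, against 1980.0 and 2023 CPM in S. paradoxus. The libraries of the species did not overlap, and the log2 ratio was -0.80 (SE 0.13, adjusted p = 0.000479). TIF2 (YJL138C, chromosome X, 153504 to 154691) encodes the same protein and had 489.6 and 528 CPM in S. cerevisiae, against 768 and 825 CPM in S. paradoxus, again without overlap. Its ratio was -0.65 (SE 0.14, adjusted p = 0.00259). Since TIF1 and TIF2 are near-identical copies, how reads were split between them is uncertain.

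The scaffold eIF4G, which bridges the cap-binding protein and the ribosome, is encoded by TIF4631 and TIF4632. TIF4631 (YGR162W, chromosome VII, 824059 to 826917) had 321 and 301 CPM in S. cerevisiae, against 569 and 687 CPM in S. paradoxus. Its ratio was -1.01 (SE 0.20, adjusted p = 0.00164), with both S. cerevisiae libraries lower. TIF4632 had 64.6 and 61.8 CPM in S. cerevisiae, against 102 and 107 CPM in S. paradoxus, and its ratio was -0.72 (SE 0.25, adjusted p = 0.0306). The cap-binding protein gene CDC33 (eIF4E) fell by 0.97 and TIF3 (eIF4B, which stimulates eIF4A) fell by 0.55 on the log2 scale.

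Of the genes that act on the cap complex from outside, PAB1, the poly(A)-binding protein, had 702 and 684 CPM in S. cerevisiae, against 1131 and 1261 CPM in S. paradoxus. Its ratio was -0.79 (SE 0.14, adjusted p = 0.000733). CAF20, which competes with eIF4G for eIF4E, had 198 and 213 CPM in S. cerevisiae, against 239 and 201 CPM in S. paradoxus, and these libraries overlapped. The ratio of CAF20 was -0.10 and that of EAP1, another competitor for eIF4E, was 0.11, and neither passed.

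Among the start codon factors, SUI1 (eIF1, which keeps initiation at the right codon) had 149 and 133 CPM in S. cerevisiae, against 349 and 304 CPM in S. paradoxus. No S. cerevisiae library reached the S. paradoxus range, and the ratio was -1.21 (SE 0.21, adjusted p = 0.000633). TIF5 (eIF5, which triggers GTP hydrolysis by eIF2) fell by 0.73, while TIF11 (eIF1A) had a ratio of -0.64 and did not pass. In eIF2, SUI3 (the beta subunit) had 325 and 267 CPM in S. cerevisiae, against 556 and 406 CPM in S. paradoxus, with a ratio of -0.70 (SE 0.19, adjusted p = 0.00835). GCD11 (gamma, which binds GTP) fell by 0.74. SUI2 (alpha, the target of Gcn2) had 302 and 317 CPM in S. cerevisiae, against 404 and 412 CPM in S. paradoxus, without overlap, but its ratio of -0.40 did not pass (adjusted p = 0.0628).

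In eIF3, 5 of 6 genes fell. NIP1 (YMR309C, chromosome XIII, 892988 to 895426) encodes the c subunit and had 241 and 222 CPM in S. cerevisiae, against 529 and 819 CPM in S. paradoxus. The S. paradoxus replicates differed, yet both lay above both S. cerevisiae values, and the ratio was -1.54 (SE 0.21, adjusted p = 0.000115). PRT1 (the b subunit) had 625 and 619 CPM in S. cerevisiae, against 898 and 1043 CPM in S. paradoxus, with a ratio of -0.64 (SE 0.16, adjusted p = 0.0053). HCR1 (the loosely bound j subunit) had 307 and 278 CPM in S. cerevisiae, against 534 and 524 CPM in S. paradoxus, with a ratio of -0.85 (SE 0.18, adjusted p = 0.00255). Its values are given although the naming rule did not select it; it was chosen after its values were seen. RPG1 (the a subunit) had 417 and 395 CPM in S. cerevisiae, against 525 and 585 CPM in S. paradoxus, and its ratio of -0.45 did not pass.

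Of the 5 eIF2B genes, which encode the exchange factor for eIF2, GCD1 (gamma) fell, with 198 and 203 CPM in S. cerevisiae, against 260.0 and 370.3 CPM in S. paradoxus and a ratio of -0.65 (SE 0.18, adjusted p = 0.0112). The others did not pass, with ratios of -0.04 for GCN3 (alpha), 0.17 for GCD7 (beta), -0.06 for GCD2 (delta) and -0.26 for GCD6 (epsilon, which holds the catalytic activity). GCD2 had 196 and 168 CPM in S. cerevisiae, against 207 and 174 CPM in S. paradoxus, and the species overlapped. Whether eIF2B differed from the other groups was not tested.

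FUN12 and DED1 had the lowest ratios. FUN12 (eIF5B, which joins the large subunit) had 309 and 240.2 CPM in S. cerevisiae, against 1435 and 611 CPM in S. paradoxus. The S. paradoxus libraries differed by -1.23 on the log2 scale, second minus first, the largest such difference of the 30 there, and the ratio of -1.90 (SE 0.44, adjusted p = 0.00372) was no longer called without the first of them. DED1 (YOR204W, chromosome XV, 722911 to 724725) encodes a helicase that promotes scanning and had 91 and 85 CPM in S. cerevisiae, against 302 and 292 CPM in S. paradoxus. Its replicates lay close together in each species, and the ratio was -1.75 (SE 0.40, adjusted p = 0.00341). DBP1 had 8.34 and 8.45 CPM in S. cerevisiae, against 8.76 and 8.04 CPM in S. paradoxus and a ratio of 0.00. RLI1, which splits ribosomes for recycling, had 218 and 227 CPM in S. cerevisiae, against 259 and 429 CPM in S. paradoxus, and its ratio of -0.63 did not pass.

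**Figure D3:**
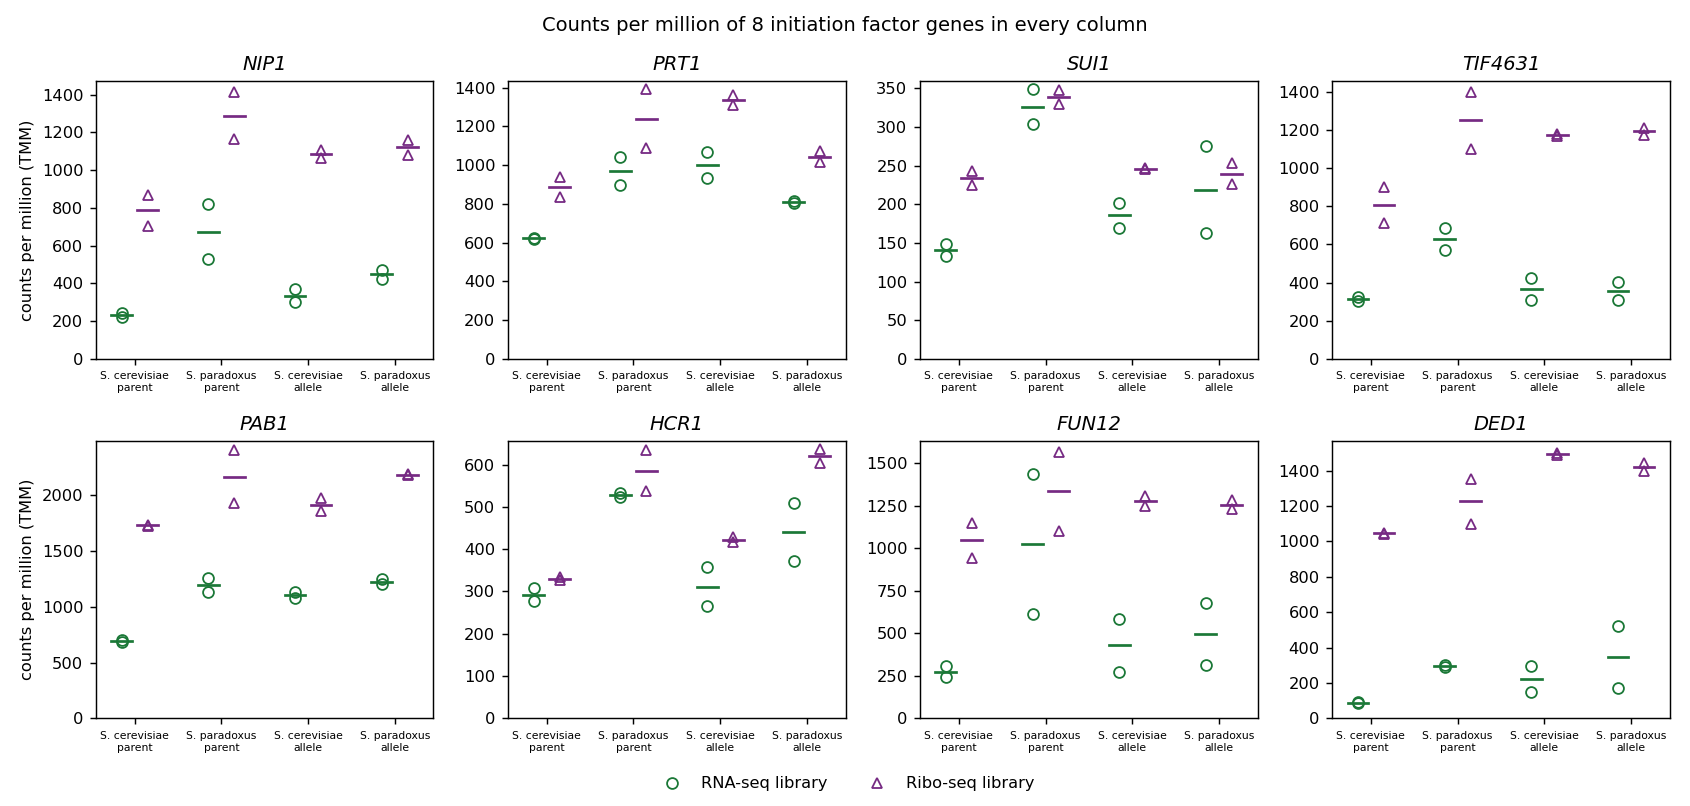
mRNA (circles) and occupancy (triangles) of 8 initiation factor genes in CPM, in every parental and allelic column, with S. cerevisiae left of S. paradoxus and bars at the mean of the replicates. DED1 mRNA is 91 and 85 CPM in S. cerevisiae and 302 and 292 CPM in S. paradoxus.

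Ribosome occupancy was also lower in S. cerevisiae for most of the genes, but fewer of them were called than in mRNA. Of the 30, 9 fell and 0 rose, where 15% of all genes tested were called lower and 18% higher. Both S. cerevisiae libraries lay below both S. paradoxus libraries for 25 of the 30, which 36.9% of all genes showed. The members' median was -0.42 and 28 of the 30 lay below 0. The genes called were TIF1, TIF4631, TIF4632, CAF20, TIF5, PRT1, NIP1, HCR1 and GCD1. Only HCR1 passed in each alternative run, with 327 and 333 CPM in S. cerevisiae, against 634 and 537 CPM in S. paradoxus and a ratio of -0.83 (SE 0.19, adjusted p = 0.0042). The count was 2 without the second S. cerevisiae or the first S. paradoxus Ribo-seq library, 4 without the first S. cerevisiae or either hybrid Ribo-seq library, and 19 and 17 without the first and the second hybrid RNA-seq library. NIP1 occupancy was 868 and 703 CPM in S. cerevisiae, against 1412 and 1165 CPM in S. paradoxus, with a ratio of -0.71 (SE 0.21, adjusted p = 0.0175). CAF20 occupancy was 398 and 384 CPM in S. cerevisiae, against 513 and 586 CPM in S. paradoxus, without overlap, and its ratio was -0.49 (SE 0.16, adjusted p = 0.03), beside an mRNA ratio of -0.10.

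DED1 and FUN12 did not pass in occupancy. DED1 had 1048 and 1043 CPM in S. cerevisiae, against 1353 and 1098 CPM in S. paradoxus, a ratio of -0.23 (SE 0.38, adjusted p = 0.686). FUN12 had 1150.0 and 943 CPM in S. cerevisiae, against 1565 and 1103 CPM in S. paradoxus, and these libraries overlapped. Translation efficiency, the occupancy ratio minus the mRNA ratio on the log2 scale, was 1.52 (SE 0.55, adjusted p = 0.157) for DED1 and 1.55 (SE 0.60, adjusted p = 0.194) for FUN12. By edgeR 0 of the 30 passed for translation efficiency, where 3.47% of all genes did. An unadjusted p under 0.05 was found for 5 of the 30 and for 903 of all genes. DESeq2 and limma-voom each called 0 of the 30, and 377 and 150 of all genes. Without the first or the second hybrid RNA-seq library some members passed, and the number called over all genes rose as well. The members' median was 0.22, and -0.02 with unscaled totals. Within S. cerevisiae, DED1 occupancy per mRNA was 3.57 on the log2 scale, at percentile 99.9 of all genes. Within S. paradoxus it was 2.04, at percentile 99.6. Such log2 values depend on the scaling. With unscaled totals the members' median moved from 0.73 to 0.044 in S. cerevisiae and from 0.51 to 0.06 in S. paradoxus.

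In the hybrid both alleles share a cell, and both are counted in the same library. The edgeR test, which did not pair the alleles of a library, called 0 of the 30 for allelic mRNA, where 13% of all genes were called. For 5 the unadjusted p was under 0.05, DESeq2 called 3 and limma-voom called 13. Over all 5158 genes the same counts were 1412, 848 and 2484. Since the alleles of a library are paired by construction, a fit with the library as a block was also made. It called 14 of the 30, 8 higher and 6 lower for the S. cerevisiae allele, beside 41.4% of all genes. GCD2 had 275 and 151 CPM for the S. cerevisiae allele, against 154 and 86.7 CPM for the S. paradoxus allele, higher for the S. cerevisiae allele in each library, with a ratio of 0.82. RPG1 had 576 and 456 CPM for the S. cerevisiae allele, against 419 and 256 CPM for the S. paradoxus allele, with a ratio of 0.61. DED1 had 147 and 297 CPM for the S. cerevisiae allele, against 172 and 519.8 CPM for the S. paradoxus allele, lower for the S. cerevisiae allele in each library, with a ratio of -0.64. The blocked fit called GCD2, RPG1 and DED1. In 19 of the 30 the sign was the same in both libraries, beside 76.8% of all genes.

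Allelic occupancy gave 0 calls of 30, where 8.74% of all genes were called. For 3 the unadjusted p was under 0.05, DESeq2 called 1 and limma-voom called 5. Over all genes the same counts were 1094, 622 and 1814. The blocked fit called 8, 2 higher (PRT1 and GCD7) and 6 lower, beside 28.5% of all genes. HCR1 had 429 and 417 CPM for the S. cerevisiae allele, against 638 and 605 CPM for the S. paradoxus allele, lower for the S. cerevisiae allele in both libraries. For allelic translation efficiency 0 of 30 were called, where 1.38% of all genes were. For 2 the unadjusted p was under 0.05, DESeq2 called 0 and limma-voom called 3. Over all genes the same counts were 497, 128 and 812. The blocked fit called 4, beside 8.31% of all genes: CAF20, RPG1 and GCD2 lower and DED1 higher.

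For some of the genes the mRNA ratio was further below 0 between the parents than between the alleles, or changed sign. The difference, parental ratio minus allelic ratio, was called for 7 of the 30, all lower, or 23.3%, where 5.51% of all genes were called lower and 6.9% higher. The difference lay below 0 in 29 of the 30, with a median of -0.70 against 0.03 over all genes. With unscaled totals these medians were -0.39 and 0.34. The genes were TIF1, TIF2, TIF4631, SUI1, RPG1, PRT1 and NIP1. None was called with unscaled totals or without either S. cerevisiae RNA-seq library, while DESeq2 called 14. The count was 3 without the second S. paradoxus RNA-seq library, 13 and 12 without the first and the second hybrid RNA-seq library, and 1 without either hybrid Ribo-seq library. TIF1 had 1913 and 2056 CPM for the S. cerevisiae allele, against 2180.3 and 2019.6 CPM for the S. paradoxus allele in the hybrid. The order of its alleles differed between the libraries, and its parental minus allelic difference was -0.72 (SE 0.19, adjusted p = 0.0269). TIF4631 had 425 and 309 CPM for the S. cerevisiae allele, against 405 and 306 CPM for the S. paradoxus allele. Its S. cerevisiae allele was slightly higher in each library, by 0.069 and 0.014 on the log2 scale. The parental minus allelic difference of TIF4631 was -1.06 (SE 0.29, adjusted p = 0.0311). NIP1 had 371 and 299 CPM for the S. cerevisiae allele, against 469.8 and 425 CPM for the S. paradoxus allele, lower for the S. cerevisiae allele in each library, and a difference of -1.12 (SE 0.29, adjusted p = 0.0259).

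The ratio of PRT1 had opposite signs in the parents and in the hybrid. The parents gave the ratio of -0.64 above, while in the hybrid PRT1 had 1069.8 and 935 CPM for the S. cerevisiae allele, against 804 and 815 CPM for the S. paradoxus allele. The S. cerevisiae allele was the higher in both libraries, and the difference was -0.95 (SE 0.22, adjusted p = 0.016). Its occupancy was 939 and 837 CPM in S. cerevisiae, against 1395 and 1086 CPM in S. paradoxus, and in the hybrid 1313 and 1361 CPM for the S. cerevisiae allele, against 1014 and 1074 CPM for the S. paradoxus allele. The occupancy difference of -0.84 (SE 0.22, adjusted p = 0.0376) was called for PRT1 alone of the 30, where 6.98% of all genes were called in either direction. It was lost with unscaled totals and in 7 of 12 fits that left out a library: either S. cerevisiae library of either assay, the first S. paradoxus Ribo-seq library or either hybrid Ribo-seq library. The coding length used for PRT1 was 2292 for the S. cerevisiae gene and 2181 for the S. paradoxus gene, in bases. A fixed difference in length is shared by the parental and the allelic ratio and cancels in their difference. With coding length as an offset the mRNA ratio of PRT1 was -0.71 between the parents and 0.24 between the alleles. For translation efficiency 0 of the 30 and 0 of all genes were called by edgeR, with 0 and 241 at an unadjusted p under 0.05, and DESeq2 called 0 of the 30 and limma-voom 0.

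The summed output of both alleles was set against each parent, and these comparisons share the hybrid libraries. Scaling factors were computed anew for the summed table, so the CPM of a parental library differs slightly from that given above. Hybrid mRNA was higher than S. cerevisiae mRNA for 8 of the 30, or 26.7%, where 14.2% of all genes were called higher. These were TIF1, TIF2, TIF3, PAB1, TIF5, PRT1, NIP1 and DED1. TIF1 had 2052 and 2024 CPM in the hybrid, against 1134 and 1199 CPM in S. cerevisiae and 2009.5 and 2061 CPM in S. paradoxus. Its ratio to S. cerevisiae was 0.80 (SE 0.15, adjusted p = 0.0029). DED1 had 159.8 and 407 CPM in the hybrid, against 92.4 and 86.5 CPM in S. cerevisiae and 306 and 297 CPM in S. paradoxus. Both hybrid libraries lay above S. cerevisiae, with a ratio of 1.66 (SE 0.32, adjusted p = 0.00392). Without the first and the second S. cerevisiae RNA-seq library 1 and 2 were called higher. The hybrid libraries moved the result in both directions. Without the first, the members' median was 0.04 in place of 0.34, and without the second it was 0.51. In each case some members were called higher and others lower than in S. cerevisiae. More of all genes were called in both cases. With unscaled totals 4 were higher and 2 lower, and the median of all genes moved to -0.30.

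Against S. paradoxus, hybrid mRNA was lower for 6 of the 30, where 10.9% of all genes were called lower. These were TIF4631, TIF4632, SUI1, NIP1, HCR1 and FUN12. NIP1 had 422 and 361 CPM in the hybrid, against 536 and 835 CPM in S. paradoxus, with a ratio of -0.81 (SE 0.21, adjusted p = 0.0186). The count was 2 without either S. paradoxus RNA-seq library and 7 with unscaled totals. Without the first hybrid library the members' median was -0.55 in place of -0.27, and without the second it was -0.19. More of all genes were called in the first case and fewer in the second. Hybrid occupancy was higher than S. cerevisiae occupancy for HCR1 alone of the 30, where 5.74% of all genes were called higher, with 542 and 517 CPM in the hybrid, against 331 and 339 CPM in S. cerevisiae, and a ratio of 0.66 (SE 0.17, adjusted p = 0.0278). That call was lost without any 1 of the S. cerevisiae RNA-seq, S. cerevisiae Ribo-seq or hybrid Ribo-seq libraries, while 5 genes were called without either hybrid RNA-seq library. Against S. paradoxus 0 of 30 passed by edgeR for occupancy, where 7.62% of all genes did. For 1 the unadjusted p was under 0.05 and DESeq2 called 0, where these counts were 1201 and 558 over all genes. No member was called past both parents, where 1.36% of all genes were above and 0.582% below both in mRNA, and 0.136% above and 0.194% below both in occupancy. The hybrid mean lay between the parental means for 18 of the 30 in mRNA and 24 in occupancy. How often this held over all genes was not counted, so these counts are not set against a background.

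The hybrid RNA-seq libraries differed from each other. The members' median log2 difference, second minus first library, was -0.33 for the S. cerevisiae allele and -0.31 for the S. paradoxus allele. FUN12 was lowest for the S. cerevisiae allele at -1.10, TIF11 lowest for the S. paradoxus allele at -1.17, and DED1 highest for both at 1.01 and 1.59. The standard deviation of this difference over all genes was 0.61 for each allele, against 0.20 between the S. cerevisiae and 0.40 between the S. paradoxus RNA-seq libraries. Each allelic mRNA value above rests on these libraries.

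**Figure D4:**
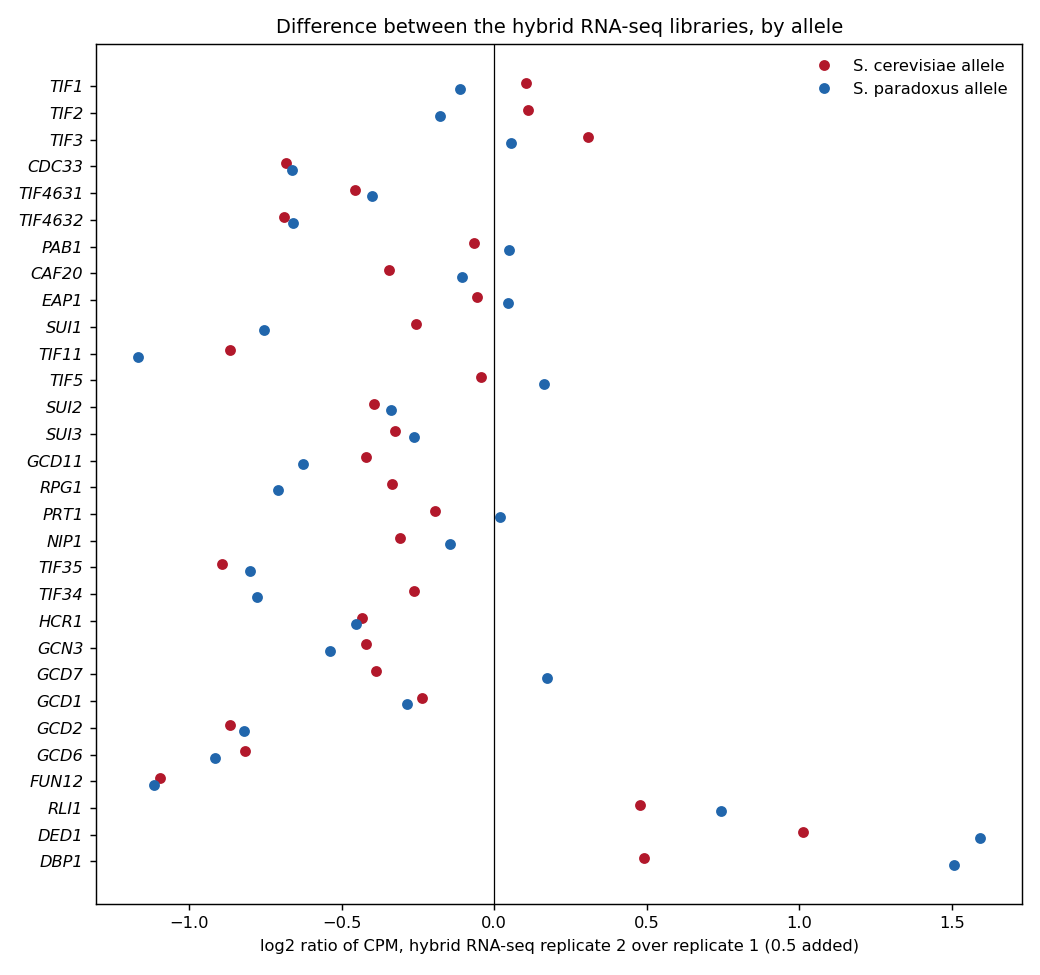
Log2 difference between the second and the first hybrid RNA-seq library for each of the 30 genes, by allele. DED1 lies highest for both alleles, at 1.01 and 1.59.

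Paralog pairs were led by the same gene in both species. TIF1 held 69.3% ± 0.33 of TIF1 and TIF2 mRNA in S. cerevisiae and 71.5% ± 0.72 in S. paradoxus (SD, n = 2 each). How reads were split between these near-identical copies is uncertain, and the SD between libraries does not measure that uncertainty. TIF4631 held 82.5% of eIF4G mRNA in S. cerevisiae, against 85.2% in S. paradoxus. Of eIF4G occupancy it held 77.6% in S. cerevisiae, against 74.5% in S. paradoxus. DED1 held 91.5% of DED1 and DBP1 mRNA in S. cerevisiae, against 97.3% in S. paradoxus, and of their occupancy 98.9% in S. cerevisiae, against 98.8% in S. paradoxus.

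Genes that act beside the initiation factors were read from 4 lists. In the eIF2 kinase pathway 3 of 6 genes fell in mRNA, beside the 21.6% of all genes called lower, and 0 rose: GCN1, which activates Gcn2, by 1.17, GCN2 by 0.69 and CDC123, an eIF2 assembly factor, by 0.66 on the log2 scale. The translation efficiency ratio of GCN1 was 1.52 (SE 0.32, adjusted p = 0.0223). Between the alleles, the mRNA ratio was 0.74 (SE 0.15, adjusted p = 0.00626) for YIH1, an inhibitor of Gcn2 activation, and -0.68 (SE 0.16, adjusted p = 0.0127) for GCN2. Allelic translation efficiency was -1.17 (SE 0.22, adjusted p = 0.0164) for YIH1. GCN4, the transcription factor whose translation responds to eIF2 phosphorylation, had mRNA of 1341 and 1338 CPM per kilobase in S. cerevisiae, against 1311 and 1196 in S. paradoxus. GCN4 occupancy was 37.8 and 49 CPM per kilobase in S. cerevisiae, against 123 and 131 in S. paradoxus, without overlap. The occupancy ratio was -1.56 (SE 0.19, adjusted p = 5.07e-05) and the translation efficiency ratio -1.64 (SE 0.26, adjusted p = 0.00423). In the hybrid, GCN4 occupancy was 68 and 60.4 for the S. cerevisiae allele, against 46.8 and 55 for the S. paradoxus allele, and the parental minus allelic difference was -1.88 (SE 0.27, adjusted p = 0.00106).

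Of 7 mRNA-binding repressors, 3 fell in mRNA (DHH1 by 0.99, PAT1 by 0.76 and PUB1 by 0.60) and 0 rose, beside the same 21.6%. DHH1, a helicase that represses translation, was higher in occupancy, with a ratio of 0.74 (SE 0.21, adjusted p = 0.0144) while for translation efficiency it was 1.73 (SE 0.30, adjusted p = 0.00653). Of the 3 genes for recycling and alternative initiation no gene was called in parental mRNA. In the list of eIF5A, eIF6, elongation and termination factors, 5 of the 11 genes tested fell (HYP2 by 1.84, TIF6 by 0.96, YEF3 by 1.54 and TEF1 by 0.67 among them), beside the same 21.6%, and HEF3 rose by 1.57. HEF3 and YEF3 are close copies whose counts are uncertain. Whether other counts in this list are affected by close copies was not examined.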

How the data were processed

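RNA-seq and Ribo-seq were compared over 12 libraries. The deposited values were read counts per gene, made by the authors, with 8 parental and 8 allelic columns per the file headers. The submitters' processing notes name the build sacCer3 and, with no roles, bedtools 2.17.0, Bowtie 0.12.8, cutadapt 1.2.1 and CASAVA 1.8. No source used here gives the S. paradoxus assembly or the use of strand in counting. S. cerevisiae and S. paradoxus columns of the same assay and number had totals within 0.18% of each other. Symbols came from the R64 RefSeq gene table, which matched 5183 of 5226 IDs and all 30 members.

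Counts were tested with edgeR 4.0.16 in R 4.3.3: genes with low counts were removed by filterByExpr (minimum 10), which left 5158, columns were scaled by TMM, group means were fitted over 16 columns, and quasi-likelihood p-values were adjusted over all genes (Benjamini-Hochberg, 0.05). The fit had 8 residual and 5.26 prior degrees of freedom. It treated the 16 columns as independent, although they came from 12 libraries and the alleles of a hybrid library share their spread. Between alleles, replicate deviations correlated at 0.809 for RNA-seq and 0.393 for Ribo-seq. The residual degrees of freedom are thus overstated, and this bears on every p-value of that fit, the parental ones included. Alleles were summed for hybrid totals (5159 genes). Log2 differences between replicates used a pseudocount of 0.5. DESeq2 1.42.0, limma 3.58.1 and other scalings, filters and left-out libraries were alternatives. The edgeR fit was also run on simulated counts. These were drawn independently for each column, so that run cannot show how the shared spread of alleles affects the p-values. All 30 members could be named, with values in full for those called in translation efficiency, parental minus allelic ratio or outside both parents, for the smallest parental mRNA adjusted p and the largest allelic mRNA ratio of each role group, and for paralog pairs. Genes of other lists were named where called, up to 5 a list by adjusted p. The members and lists were chosen with earlier results of these data known. Start codon context and promoters were not analysed here.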

Additional observations from a re-analysis of the deposited data

Results flagged for a closer look

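For 7 genes the mRNA ratio between the parents differed from that between the alleles of the hybrid, by the test of the difference itself (edgeR). The difference, parental minus allelic, was -0.72 (SE 0.19, adjusted p = 0.0269) for TIF1, -0.75 (SE 0.20, adjusted p = 0.0284) for TIF2 and -1.06 (SE 0.29, adjusted p = 0.0311) for TIF4631. It was -0.97 (SE 0.30, adjusted p = 0.0481) for SUI1 and -1.12 (SE 0.29, adjusted p = 0.0259) for NIP1. RPG1 gave -1.06 (SE 0.31, adjusted p = 0.0402) and PRT1 gave -0.95 (SE 0.22, adjusted p = 0.016). For PRT1 the occupancy difference of -0.84 (SE 0.22, adjusted p = 0.0376) was also called. With unscaled totals the median mRNA difference was -0.39 for the members and 0.34 for all genes. None of the 7 mRNA calls held with unscaled totals or without either S. cerevisiae RNA-seq library, and the occupancy call was lost with unscaled totals and in 7 of 12 fits without a library.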

How the results depend on the processing

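Counts are members called of 30. With unscaled totals, chosen after seeing the data, parental mRNA gave 11 and the mRNA and occupancy parental minus allelic differences 0 each. DESeq2 gave 15 for parental occupancy, 3 for allelic mRNA, 1 for allelic occupancy, 14 for the mRNA difference and 2 for hybrid occupancy against S. cerevisiae. The parental columns alone gave 14 for parental occupancy and 1 for parental translation efficiency. No label says that replicate numbers pair the libraries. Same-numbered deviations correlated at -0.064 to 0.328 between libraries, with 0.216 to 0.303 between RNA-seq libraries of different strains, so whether they are paired was not settled, and alleles of a library gave 0.393 and 0.809. With a replicate block the counts were 1 for parental translation efficiency, 3 for allelic mRNA, 1 for allelic occupancy, 12 for the mRNA difference and 2 for hybrid occupancy against S. cerevisiae. limma-voom gave 13 for allelic mRNA, 5 for allelic occupancy, 3 for allelic translation efficiency and 19 for the mRNA difference. The hybrid columns alone with the library as a replicate block gave 14, 8 and 4 for allelic mRNA, occupancy and translation efficiency. Leaving out 1 library gave 12 to 23 for parental mRNA, 2 to 19 for parental occupancy and 0 to 3 for parental translation efficiency. It gave 0 to 4 for allelic mRNA, 0 to 2 for allelic occupancy, 0 to 13 for the mRNA difference and 0 to 3 for the occupancy difference. For hybrid mRNA it gave 1 to 16 against S. cerevisiae and 1 to 17 against S. paradoxus, and for occupancy 0 to 5 and 0 to 1. The hybrid to S. paradoxus mRNA ratio of DED1 (-0.09) turned to 0.43 without the first hybrid RNA-seq library and was -0.92 without the second. Unscaled totals moved the median level to 320 and 453 CPM per kilobase for S. cerevisiae and S. paradoxus mRNA, 366 and 476 for occupancy, and 432 and 425 for the occupancy of the alleles. Median log2 occupancy per mRNA moved from 0.73 to 0.044 in S. cerevisiae and from 0.51 to 0.06 in S. paradoxus. For the S. cerevisiae allele it moved from 0.70 to 0.27, and for the S. paradoxus allele from 0.69 to 0.26. The ranges above take calls in both directions together. The number called over all genes also moved between the fits that left out a library. The causes were not tested, and with 2 libraries a group the precision is limited.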
